A study of Saccharomyces cerevisiae with 6 samples.

Results

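CUT&RUN peaks of the budding yeast (Saccharomyces cerevisiae) transcription factors Pdr1 and Pdr3 were examined at 9 genes of lipid handling, out of 6002 nuclear protein-coding genes of assembly R64. The 9 genes were taken by name: 6 encode Sec14-like proteins (PDR16, PDR17, SEC14, SFH1, SFH5 and CSR1) and 3 form the family of the acyltransferase gene ICT1 (ICT1, ECM18 and CLD1). All 9 were found in the RefSeq gene table of R64. The symbol SFH1 of that table belongs to YLR321C, known as a subunit of the RSC chromatin remodeller and not as a lipid transfer protein. The Sec14-like gene is YKL091C, for which the table lists SFH1 as a synonym, and SFH1 below means YKL091C.

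In CUT&RUN, an antibody on permeabilised nuclei brings a micrococcal nuclease to the bound protein, and the released DNA is sequenced. There were 6 libraries from cultures grown in the rich medium YPD at 30 °C, with no drug treatment in the labels. The strain labelled YRP10 gave 2 anti-c-Myc libraries for Pdr1 and 2 rabbit IgG libraries, and the strain labelled Pdr3_3xmyc gave 1 of each for Pdr3. The labels do not give the tag carried by YRP10, or say whether its replicates were separate cultures. The values below come from the 3 c-Myc peak lists, with 792 peaks for Pdr1 replicate 1, 485 for Pdr1 replicate 2 and 7 for Pdr3. Sequencing depth is unknown, because no read counts come with the lists, and a missing peak says only that none was listed. The IgG libraries were not analysed here, so no control antibody value stands beside these peaks.

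Pdr1 and Pdr3 are zinc-cluster activators of the pleiotropic drug resistance genes, which include drug exporters and genes of membrane lipids. Sec14, the founder of its family, moves phosphatidylinositol and phosphatidylcholine between membranes and is essential for secretion from the Golgi. Pdr16 binds sterols as well as phosphatidylinositol, and loss of it makes yeast more sensitive to azole antifungals. Pdr17, its paralog from the whole-genome duplication, works with the phosphatidylserine decarboxylase Psd2. Ict1 is an acyltransferase that uses lysophosphatidic acid, Ecm18 is its duplication paralog, and Cld1 is a mitochondrial phospholipase that acts on cardiolipin.

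Of the 9 genes, PDR16 and ICT1 had a Pdr1 peak upstream. The other 7 had none in either Pdr1 replicate, as did 83.2% of all genes. A gene was counted when a summit, the highest point of a peak, lay within 1000 bp upstream of its annotated start. In replicate 1 this held for 2 of the 9 genes (22.2%, 95% Wilson interval 6.32 to 54.7%), against 15.5% of all genes. In replicate 2 it held for 1 of the 9, PDR16 (11.1%, 1.99 to 43.5%), against 10.2% of all genes. PDR16 was thus the 1 gene with a summit in both Pdr1 replicates, beside 8.95% of all genes. No Pdr3 summit lay upstream of any of the 9 genes, beside 0.167% of all genes, or 10 of the 6002. The intervals cover counting error only, are wide with 9 genes, and treat genes taken by name as independent draws. The share of all genes lies inside the interval of the 9 genes in each list, but this was not used as a test. These counts are no result about the 9 genes as a group.

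**Figure D1:**
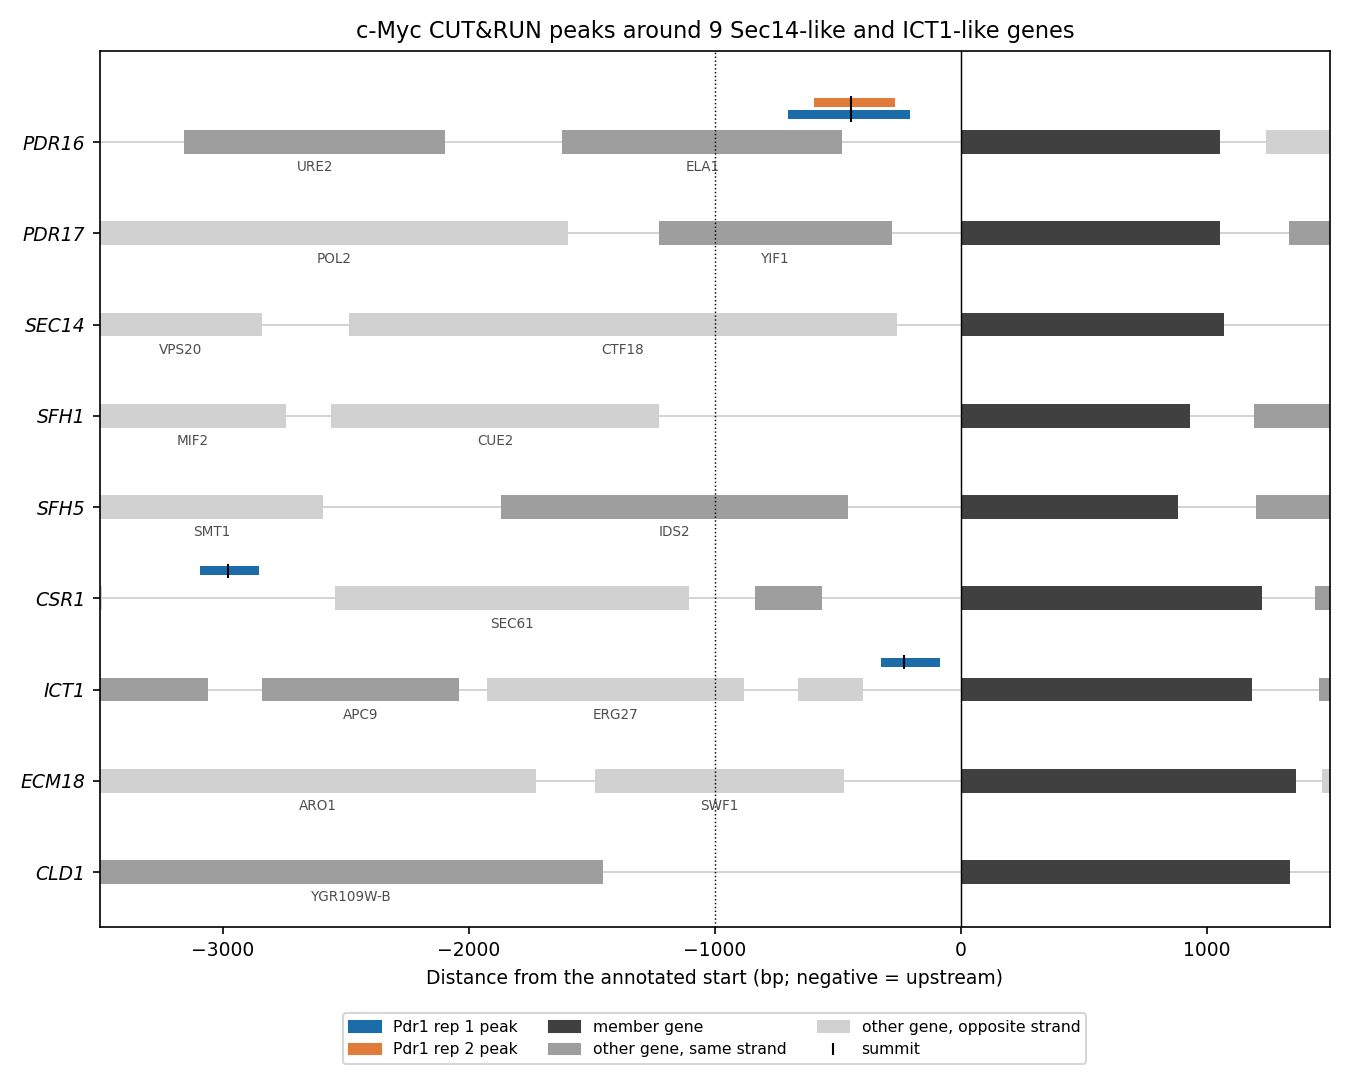
Peaks around the annotated start of each of the 9 genes, with distance in bp on the horizontal axis, negative upstream, and the dotted line at 1000 bp. Blue bars are Pdr1 replicate 1 peaks and orange bars replicate 2 peaks, black ticks are summits, dark grey bars are the 9 genes and lighter bars their neighbours. PDR16 has a peak in both replicates with summits 447 bp upstream, ICT1 has a replicate 1 peak with its summit 229 bp upstream, and no Pdr3 peak falls in the range drawn.

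PDR16 (YNL231C) lies on chromosome XIV from 215987 to 217042 (R64), on the reverse strand. Its Pdr1 peak ran from base 217248 to 217744 in replicate 1 and from 217308 to 217639 in replicate 2. The authors' fold enrichment of the peak was 37.5 in replicate 1 and 25.04 in replicate 2. It was the strongest peak of replicate 1, where the next strongest was 27.6-fold, and the second of replicate 2, where the strongest was 25.6-fold. These values were 7.72 times the median peak of replicate 1 and 5.16 times the median peak of replicate 2. Its −log10 q, the peak caller's adjusted significance, was 400.01 in replicate 1, the highest of that list, and 162 in replicate 2, where it ranked 4.

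Both replicates placed the PDR16 summit at base 217489, 447 bp upstream of the annotated start. Of the 537 genes with a summit in both replicates, 51 (9.50%) had their strongest summits at the same base, and the median offset was 30 bp. The replicate 2 peak, 332 bp wide, lay entirely inside the replicate 1 peak, which was 497 bp wide. Such nesting was found for 361 of the 537 genes (67.2%). The space between PDR16 and its upstream neighbour ELA1 (YNL230C), which encodes elongin A, is 480 bp long, and both genes are read in the same direction. The summit lay in this space, 34 bp from the end of ELA1. The peak reached into ELA1 by 222 bases in replicate 1 and 117 bases in replicate 2. No other gene had this summit within 1000 bp upstream. The distance of 447 bp is an ordinary one: the strongest upstream summit lay nearer to the start in 60.0% of the 931 genes with a summit in replicate 1 and in 55.0% of the 613 in replicate 2.

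**Figure D2:**
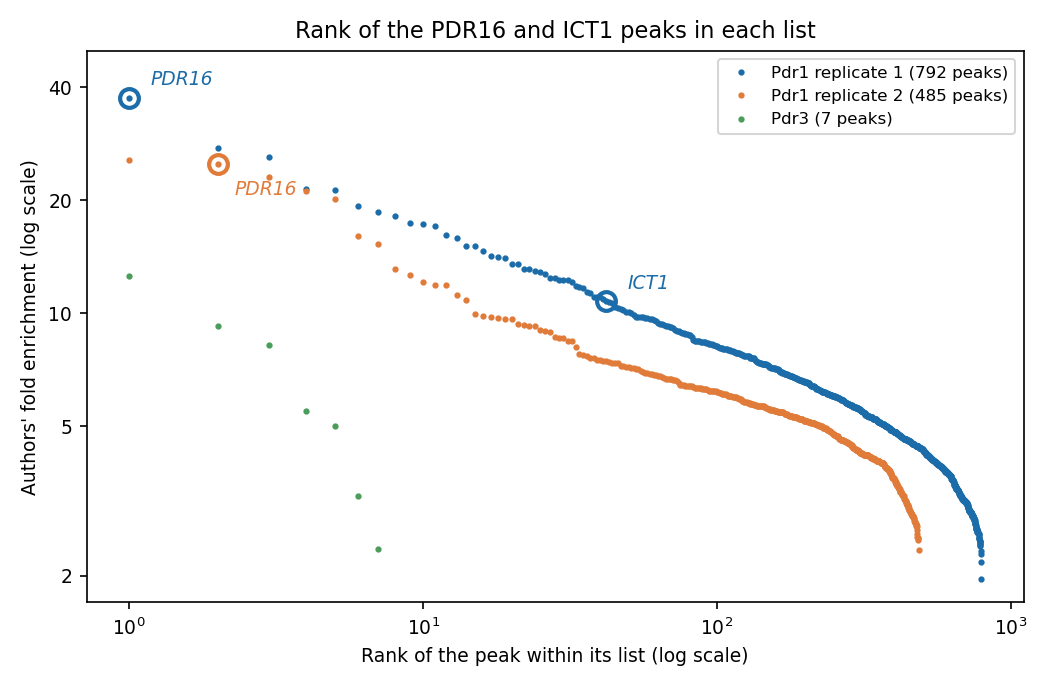
Authors' fold enrichment of every peak against its rank within its list, both on log scales, with Pdr1 replicate 1 in blue, replicate 2 in orange and Pdr3 in green. Circles mark the PDR16 peaks, at 37.5-fold and 25.04-fold, and the ICT1 peak of replicate 1, at 10.8-fold and rank 42 of 792.

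The absence of PDR16 from the Pdr3 list was set beside the 7 peaks that the list does hold. Each of the 7 overlapped a Pdr1 peak in both replicates. These Pdr1 peaks had fold enrichments of 7.71 to 21.2 in replicate 1 and of 6.99 to 25.6 in replicate 2. All 7 were weaker than the PDR16 peak in replicate 1. In replicate 2, 6 of the 7 were weaker, and the exception was the peak upstream of RSB1, a sphingoid base transporter gene. PDR16 ranked 1 in replicate 1 and 2 in replicate 2, so these counts could hardly differ. They do not bear on its absence from the Pdr3 list. Of the 10 strongest Pdr1 peaks, 2 overlapped a Pdr3 peak in replicate 1 and 4 did so in replicate 2. The Pdr3 list holds only 7 peaks, so overlap was rarer over all 792 peaks of replicate 1 and 485 of replicate 2. The strongest Pdr1 peaks at those 7 ranked 5 to 125 in replicate 1 and 1 to 56 in replicate 2. PDR16 thus lacked a Pdr3 peak in a range of ranks where some Pdr1 peaks had one and others did not. The weakest listed Pdr3 peak was 2.36-fold enriched, with a −log10 q of 7.46. The Pdr3 library has no replicate, and the difference between the factors at PDR16 was not tested. The 7 Pdr3 peaks lay on 5 of the 16 chromosomes, which hold 2720 of the 6002 genes, and chromosome XIV was not among the 5.

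The genes most like PDR16 by size of the Pdr1 peak were sought among the 526 other genes with a summit in both Pdr1 replicates and none in the Pdr3 list. Likeness was the sum over both replicates of the absolute difference in log2 fold enrichment between the strongest upstream peaks. SKI7 and BUD21, which share 1 peak on chromosome XV, came nearest with a sum of 1.82. Their peak was 27.6-fold enriched in replicate 1 and 9.66-fold in replicate 2. IPT1, which encodes an enzyme in the synthesis of inositol-containing sphingolipids, followed with a sum of 1.96, from 15.1-fold and 16.0-fold, and shares its peak with SNF11. Without the condition on the Pdr3 list, a choice made after the values were seen, 2 genes that have a Pdr3 peak came nearer. These were RSB1, from 13.6-fold in replicate 1 and 25.6-fold in replicate 2, and the drug exporter gene PDR5, with a sum of 1.67, from 12.8-fold in replicate 1 and 23.1-fold in replicate 2. As at PDR16, the IPT1 summits coincided in both replicates, at base 591772 on chromosome IV, 428 bp upstream of IPT1.

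PDR17 (YNL264C; chromosome XIV, 145563 to 146615) is the paralog of PDR16 and lies on the same chromosome and strand. Like PDR16, it follows a neighbour read in the same direction, YIF1, over a space of 280 bp. The nearest summit to its start was 51.5 kb away in replicate 1, upstream of the glucose-6-phosphate dehydrogenase gene ZWF1, and 63.4 kb away in replicate 2, upstream of YNL234W. Of all genes, 99.4% had a nearer summit in replicate 1 and 97.1% in replicate 2. PDR17 was thus among the genes farthest from any listed Pdr1 peak, whereas PDR16 had the strongest peak of replicate 1 and the second strongest of replicate 2.

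The other 4 Sec14-like genes had no listed summit upstream either. For SEC14 (YMR079W; chromosome XIII, 424989 to 426059) the nearest summit was 6.75 kb from the start in replicate 1 and 8.98 kb in replicate 2, both beyond the 3′ end of the gene. For SFH1 (YKL091C; chromosome XI, 269718 to 270650), a protein close to Sec14 in sequence, the distances were 9.44 kb in replicate 1 and 9.96 kb in replicate 2. The space upstream of SFH1 is 1227 bp long. YLR321C, the gene whose symbol is SFH1, had no summit upstream in any of the 3 lists. SFH5 (YJL145W; chromosome X, 145160 to 146044) encodes a Sec14-like protein known to bind haem. Its nearest summits were 8.88 kb away in replicate 1, at INO1, and 12.4 kb away in replicate 2, at RPS21B and LCB3. CSR1 (YLR380W; chromosome XII, 878282 to 879508), also known as SFH2, had a strong replicate 1 peak 2.98 kb upstream. That peak, at 10.6-fold and rank 44, lay beyond SEC61 and within 1000 bp upstream of FBP1, which encodes the gluconeogenic fructose-1,6-bisphosphatase. It was the upstream summit nearest to the limit of 1000 bp among the genes not counted, and in replicate 2 the nearest summit to CSR1 was 43.5 kb away.

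**Figure D3:**
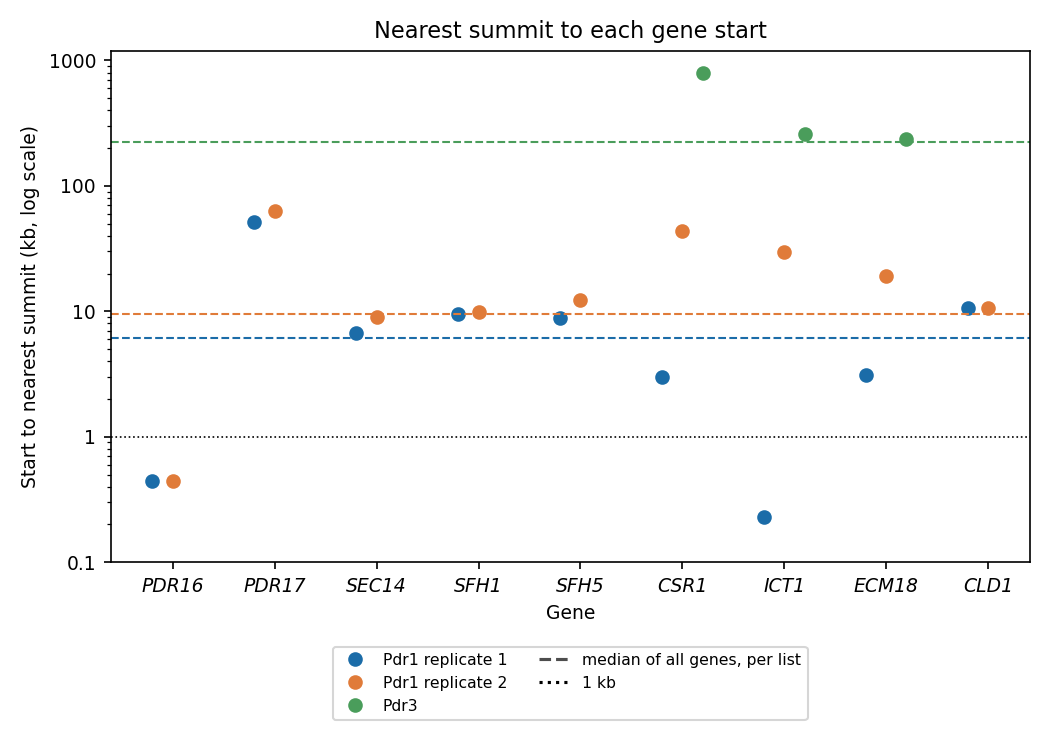
Distance from each of the 9 annotated starts to the nearest summit in either direction, in kb on a log scale, in Pdr1 replicate 1 (blue), replicate 2 (orange) and Pdr3 (green, drawn only where the chromosome has a Pdr3 peak). Dashed lines are medians: 6.07 kb and 9.57 kb over all 6002 genes for Pdr1 replicates 1 and 2. For Pdr3 the median, 222 kb, covers only the 2720 genes on chromosomes with a Pdr3 peak. The dotted line is at 1 kb, below which only PDR16 in both Pdr1 replicates and ICT1 in replicate 1 fall.

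ICT1 (YLR099C) lies on chromosome XII from 339744 to 340928, on the reverse strand, and shares a 396 bp space with the divergent gene MIM2, which encodes a part of the mitochondrial outer membrane import machinery. In replicate 1 a peak from base 341014 to 341251, 238 bp wide, lay wholly within this space. Its fold enrichment of 10.8 gave it rank 42 of 792, and its −log10 q of 43.6 gave it rank 111. The summit at base 341157 was 229 bp upstream of ICT1, nearer than in most genes: 17.9% of the genes with a replicate 1 summit had theirs closer to the start. The same summit was 168 bp upstream of MIM2 and 653 bp upstream of ERG27, the ergosterol synthesis gene after it, so the list does not assign the peak to 1 of the 3 genes.

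Replicate 2 listed no peak at ICT1, and its nearest summit was 29.7 kb from the start. A summit in replicate 1 without one in replicate 2 was found for 6.56% of all genes. Of the 21 replicate 1 peaks from 10 ranks above ICT1 to 10 ranks below it (9.89-fold to 12.1-fold), 14 (66.7%) overlapped a replicate 2 peak, and ICT1 was 1 of the 7 that did not. Among the 31 stronger peaks, 27 (87.1%) overlapped one. Over the whole replicate 1 list, 413 of 792 peaks (52.1%) overlapped one. The ICT1 call thus rests on 1 library. Without replicate 1, PDR16 is the sole gene of the 9 with a peak.

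ECM18 and CLD1, the relatives of ICT1, had no summit upstream in any list. ECM18 (YDR125C; chromosome IV, 701397 to 702758) shares a 475 bp space with the divergent palmitoyltransferase gene SWF1, an arrangement like that of ICT1 and MIM2. Its nearest replicate 1 summit lay 3.10 kb away beyond its 3′ end, upstream of INO2 and YDR124W, in a peak of 7.09-fold and rank 160. Ino2 is an activator of phospholipid synthesis genes. In replicate 2 the nearest summit to ECM18 was 19.2 kb away. CLD1 (YGR110W; chromosome VII, 713709 to 715046) has the longest upstream space of the 9, 1454 bp, bounded by the retrotransposon gene YGR109W-B. Its nearest summits were 10.6 kb away in each replicate, upstream of the cyclin gene CLB1. How the authors treated reads that match several retrotransposon copies is not stated, and its part in the missing peak was not tested.

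The upstream spaces of the 9 genes were 260 to 1454 bp long, with a median of 475 bp, against 449 bp over all genes. Of the 9 genes, 5 follow a neighbour read in the same direction and 4 are divergent from it. Over all genes, a replicate 1 summit lay upstream of 13.2% of the 2878 genes in the first arrangement, to which PDR16 belongs, and of 17.7% of the 3114 divergent genes, to which ICT1 belongs. The median distance from the start to the nearest summit was 6.75 kb for the 9 genes and 6.07 kb for all genes in replicate 1. In replicate 2 it was 12.4 kb for the 9 genes and 9.57 kb for all genes.

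Other genes of the lipids that these proteins carry or modify were looked at in 2 lists. The first list had 31 genes of glycerophospholipid synthesis, its regulators and the phosphoinositide kinases. Of these, 6 had a summit upstream in replicate 1 (19.4%) and 2 in replicate 2 (6.45%), beside 15.5% and 10.2% of all genes, and none had one in the Pdr3 list. Those in both replicates (6.45%, beside 8.95% of all genes) were PCT1 and KES1. PCT1 encodes the rate-limiting enzyme that makes CDP-choline for phosphatidylcholine, and KES1 an oxysterol-binding protein whose loss bypasses the need for Sec14. The PCT1 peak was 5.36-fold enriched in replicate 1 and 5.81-fold in replicate 2, and its summit also lay upstream of ADE3. The KES1 peak was 5.22-fold and 4.24-fold enriched, with its summit also upstream of POC4. PIK1 and STT4, which encode the main phosphatidylinositol 4-kinases, and PSD2, the partner of PDR17, had no summit upstream in any list. Most genes are like them: 83.2% of all genes had none in either Pdr1 replicate.

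The second list had 23 genes of acyltransferases, lipases and phospholipases. A summit lay upstream of 6 of them in replicate 1 (26.1%), of 5 in replicate 2 (21.7%) and of none in the Pdr3 list, beside 15.5%, 10.2% and 0.167% of all genes in the same order of lists. A summit in both replicates was found for 5 (21.7%, beside 8.95% of all genes). The 23 genes were chosen with earlier results of these data known, and the difference in shares was not tested. The higher shares are therefore no result about the list. The 5 were the phospholipase B genes PLB1, PLB2 and PLB3, the glycerol-3-phosphate acyltransferase gene SCT1 and the glycerophosphocholine acyltransferase gene GPC1. Their peaks were modest. The PLB1 peak was 4.59-fold enriched in replicate 1 and 4.56-fold in replicate 2. PLB2 and PLB1 are neighbours on chromosome XIII, and the PLB2 peak was 2.86-fold and 5.54-fold enriched. For PLB3 the replicates had their strongest peaks at different places, 343 bp upstream at 3.05-fold in replicate 1 and 882 bp upstream at 4.38-fold in replicate 2, where the summit also lay upstream of the histone variant gene HTZ1. The GPC1 peak, at 5.22-fold and 4.26-fold, had its summit also upstream of the ribosomal protein gene RPL24B. The SCT1 peak was among the weakest, at 3.16-fold and 2.80-fold. The best mean rank of a gene in either list with a peak in both replicates was 224, that of PCT1, so none came near PDR16.

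**Figure D4:**
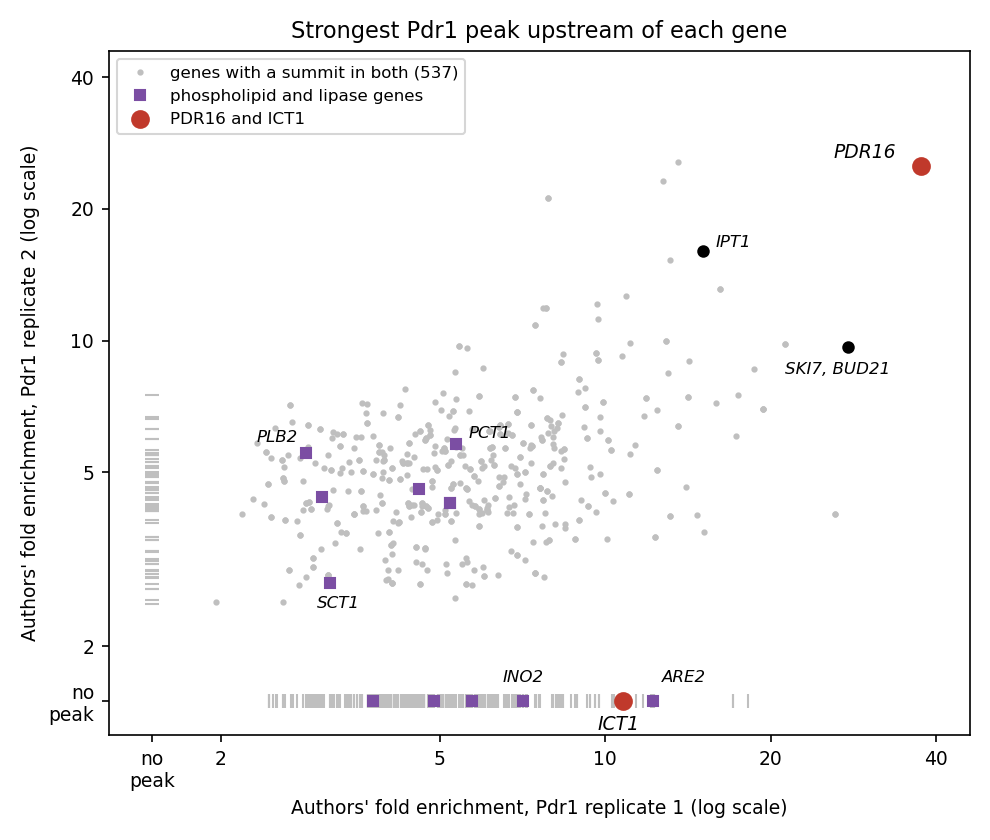
Authors' fold enrichment of the strongest Pdr1 peak upstream of each gene in replicate 1 (horizontal, log scale) and replicate 2 (vertical, log scale), with genes that have a peak in 1 replicate alone drawn along the edge marked no peak. PDR16, at 37.5-fold and 25.04-fold, lies apart at the upper right, ICT1 lies on the lower edge at 10.8-fold, and the purple squares of the 2 lipid gene lists (KES1 and GPC1 overlap) reach at most 5.36-fold in replicate 1 and 5.81-fold in replicate 2 where both replicates have a peak.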

How the data were processed

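Peak lists of the 3 c-Myc libraries were used as deposited, 1 list per library. The submitters' processing notes name Trimmomatic 0.33, Bowtie2, Picard, deepTools and MACS2 2.1.1 and the builds R64 and sacCer3, without their roles. The settings, and whether IgG or spike-in reads entered the calls, are not given in the labels. The lists have no header and follow the narrowPeak layout. The fold enrichment, a linear ratio deposited for each peak by the authors, has no stated reference and was used only within a list, except that log2 fold enrichments of both replicates were summed for the likeness measure. The deposited −log10 q-value ranked and filtered peaks, while the −log10 p-value deposited beside it served for nothing here. The score deposited by the authors was 10 times the −log10 q with decimals dropped (100% of peaks) and served for nothing either.

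Starts and ends are counted from 1. Genes came from the RefSeq table of R64, with the strand read from the systematic name. Every summit within 1000 bp upstream of a start was assigned to that gene, so 1 summit can belong to several genes. No test was run: counts stand beside the same count over all 6002 genes, with Wilson intervals from scipy 1.17.1. The assignment was tested on simulated data.

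The 9 genes, the lists of lipid genes and the alternatives were chosen with earlier results of these data known. Text names the 9 genes, genes sharing or near their summits, listed lipid genes with a summit in both Pdr1 replicates (at most 10, by mean rank), and the 3 genes most like each of the 9 with a summit in both. INO1, INO2, CHO2, TAM41, RME1, ARE2, PIK1, STT4, PSD2, RSB1, PDR5, SNF11, and ZWF1 and other genes at the nearest summits are named outside this rule, after their values were seen. No sequence was used, so the planned search for response elements was not run.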

Additional observations from a re-analysis of the deposited data

How the results depend on the processing

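The counts of genes with a summit upstream (2 in Pdr1 replicate 1, 1 in replicate 2, 0 for Pdr3 and 1 in both Pdr1 replicates) did not change with a −log10 q of at least 10, with 500 or 2000 bp upstream, with windows that ended at the neighbouring gene, or when any base of a peak counted. Nor did they change with SFH1 taken as YLR321C or with summits moved by 100 bp either way, settings added after the data were seen. The gene in both replicates was PDR16 also when the replicate peaks had to overlap by 1 bp or by 50% reciprocally, or have summits within 100 bp. Leaving out a Pdr1 replicate gave 1 to 2 genes, 2 (PDR16 and ICT1) without replicate 2. For single genes, the number of lists with a summit was unchanged in 63 of 63 recomputations over the 9 genes. The counted summits lay 447 bp and 229 bp upstream, and the nearest upstream summit of the genes not counted lay 2.98 kb away. These settings therefore had little room to change a count. The PDR16 summits share a base and its peaks are nested, so the rules on overlap and summit distance had little room either. Ranked by −log10 q in place of fold enrichment, the PDR16 peak stayed at 1 in replicate 1 and went to 4 in replicate 2, and the ICT1 peak went to 111. The cause was not tested. No paired analysis was possible because only IgG libraries share numbers with the Pdr1 c-Myc replicates and no IgG list was analysed here. The windows and words planned for response elements were not run, because no sequence was used. With depth unknown, a gene with no listed peak cannot be told from one below the authors' threshold.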

Other observations

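Of the 31 phospholipid genes, 4 had a summit upstream in Pdr1 replicate 1 and none in replicate 2 (6.56% of all genes did), and they are named here after their values were seen. INO2 had a 7.09-fold peak, and CHO2, the phosphatidylethanolamine methyltransferase gene, a 5.71-fold peak. INO1, the inositol phosphate synthase gene, had a 4.88-fold peak, and TAM41, a mitochondrial enzyme gene of cardiolipin synthesis, a 3.78-fold peak. The INO2 summit also lay upstream of YDR124W, and the TAM41 summit also lay upstream of RME1. In the list of acyltransferases and lipases, ARE2, which encodes a sterol acyltransferase, was the 1 gene with a replicate 1 peak alone. At 12.2-fold and rank 31, the ARE2 peak was stronger than that of ICT1. These 5 genes were picked for having no summit in replicate 2, so its lack there is no result. None of the 5 had a summit upstream in the Pdr3 list, which holds 7 peaks.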
